A study of Drosophila melanogaster with 33 samples.

Results

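In embryos of *Drosophila melanogaster*, 2120 of the 9674 Lola-I peaks of replicate 2 lay deep in introns and had no counterpart in replicate 1. These 2120 peaks, here called members, were chosen by measured values, namely the peak calls of both libraries and the position of the summit, the base of highest signal in a peak. A member was overlapped by no replicate 1 peak, and its summit lay over 500 bp from every annotated transcription start site (TSS), inside a gene body and in no exon. Of the 9674 peaks, 9665 lay on the 7 chromosome arms, 8200 of these were overlapped by no replicate 1 peak, 3337 had a summit over 500 bp from every TSS, 2432 of those summits lay inside a gene, and 2120 lay in no exon. The study used ChIP-seq, which sequences the DNA that an antibody pulls down together with its target, and its 33 samples form 12 groups by target, genotype and age. The members come from 1 group, the Lola-I libraries of whole wild-type embryos of the Oregon-R strain aged 14 to 17 h, made with a custom rabbit polyclonal antibody against Lola-I. This group holds 2 libraries, each with its own peak list, and the other 31 samples were not analysed here. Whole embryos mix all tissues, so a peak bound in few cells and one bound weakly in many cannot be told apart.

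Lola-I is one of many protein isoforms that the gene *lola* produces by alternative splicing. The isoforms share a BTB domain, through which such proteins pair, and differ in their zinc fingers, which read DNA sequence. The series title presents Lola-I as a factor that opens promoters and sets up paused RNA polymerase II. Introns of fly genes hold many enhancers, and long first introns are a common place for them. Repeats of the bases G and A are known as the binding sequence of GAF, the product of *Trl*, which is another BTB protein and was a separate target in this series.

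The replicate 2 list alone carries the values of the members. Replicate 1 held 1759 peaks and replicate 2 held 9674, and the lowest −log10 p-values were 5.20 and 5.16. The lists give no read counts, so the depth of each library is unknown. Every member is a call in 1 library, with no replicate value, and no significance test was made on any comparison. Fold enrichment, −log10 p-value and score are the authors' own values for each peak. Intervals in parentheses are 95% Wilson intervals, which treat peaks or genes as independent and cover counting error only.

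The sequences below are chosen examples and no sample of the members. Each is 81 bases centred on a summit, given on the plus strand of dm6 from the RefSeq assembly. Capitals mark matches, on either strand, to the repeat word GAGAG or to AAAGCT, to AAGCTC or to AAGCTT, which overlap one another and are called AAGCT words. *Tlk*, *trh*, *Ubx* and *Sclp* host high-scoring members with a GA repeat of at least 7 bases in these 81. *tim* and *Pde11* host high-scoring members with AAGCT words, and *Eip75B* and *Eip74EF* are hosts with many members. Among all members, the 2 at *upSET* ranked 1 and 3 by score, and the last sequence is an *Eip75B* peak called in both libraries, shown for contrast.
Tlk, chrX:3740874-3740954: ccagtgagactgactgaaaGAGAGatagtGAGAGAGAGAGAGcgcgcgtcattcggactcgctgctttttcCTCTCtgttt
trh, chr3L:378088-378168: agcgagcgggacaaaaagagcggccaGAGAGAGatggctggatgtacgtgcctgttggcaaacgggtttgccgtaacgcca
Ubx, chr3R:16703025-16703105: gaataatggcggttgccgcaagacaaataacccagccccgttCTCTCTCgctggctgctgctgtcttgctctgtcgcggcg
Sclp, chrX:11921298-11921378: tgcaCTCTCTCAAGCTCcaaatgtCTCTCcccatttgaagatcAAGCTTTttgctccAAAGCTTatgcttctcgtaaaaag
tim, chr2L:3506388-3506468: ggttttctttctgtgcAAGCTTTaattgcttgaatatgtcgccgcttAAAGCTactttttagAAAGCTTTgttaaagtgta
Pde11, chr2L:18576391-18576471: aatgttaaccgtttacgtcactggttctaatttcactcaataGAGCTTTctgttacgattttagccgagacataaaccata
Eip75B, chr3L:17988296-17988376: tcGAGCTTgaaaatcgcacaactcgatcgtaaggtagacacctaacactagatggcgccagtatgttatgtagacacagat
Eip74EF, chr3L:17614135-17614215: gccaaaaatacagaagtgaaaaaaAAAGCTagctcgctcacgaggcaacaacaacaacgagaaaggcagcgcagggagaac
upSET, highest score, chr3L:14002848-14002928: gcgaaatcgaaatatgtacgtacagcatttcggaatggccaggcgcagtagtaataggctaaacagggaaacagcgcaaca
upSET, second member, chr3L:14004163-14004243: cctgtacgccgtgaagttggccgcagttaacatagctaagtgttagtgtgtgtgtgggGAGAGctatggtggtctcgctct
Eip75B, called in both libraries, chr3L:18019784-18019864: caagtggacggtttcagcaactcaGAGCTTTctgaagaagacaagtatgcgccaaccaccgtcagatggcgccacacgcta
The *Tlk* member carried a GA run of 13 bp that covered its summit and had a fold enrichment of 24.4. The *trh* member, at 16.5, and the *Ubx* member, at 18.7, carried runs of 9 and 8 bp. At *Sclp* both kinds of word stood within the same 81 bases, and the fold enrichment was 21.2. The *tim* member held 3 separate stretches with AAGCT words, no GAGAG, and a fold enrichment of 41.1. Near the first *upSET* summit none of the words occurred, although its fold enrichment was 55.1. The high-scoring members at *tara* and *lncRNA:CR32773*, not shown, also had none of the words in their 81 bases.

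Members were mostly low peaks within their own list. Their median fold enrichment was 4.34, with quartiles of 3.31 and 6.59 and a range of 1.71 to 70.8. Intronic peaks placed by the same rule but overlapped by a replicate 1 peak, 254 in all, had a median of 35.4 and quartiles of 22.96 and 75.9. Since the rule used the replicate 1 calls, this gap is a description of the choice and not a result. The 3879 replicate 2 peaks within 200 bp of a TSS that replicate 1 lacked had a median of 5.03, and the 905 such intergenic peaks over 500 bp from a TSS had a median of 5.17. The median member was 239.5 bp wide and had a −log10 p-value of 27.7. With the replicate 2 list divided by score into classes of 25%, the lowest class held 795 members, the next ones 614 and 495, and the highest 216.

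**Figure D1:**
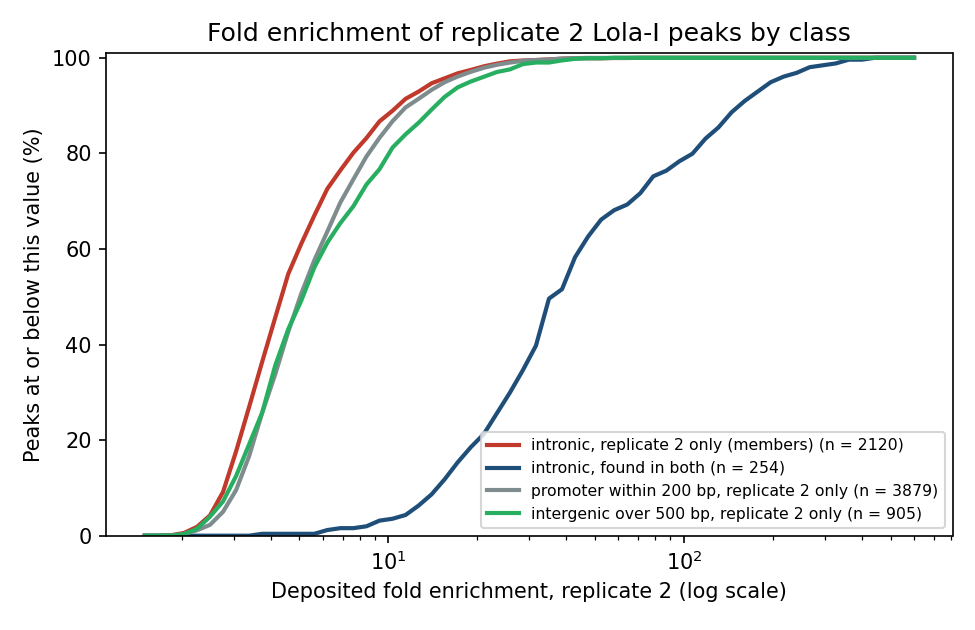
Share of replicate 2 peaks (y axis, %) at or below each deposited fold enrichment (x axis, log scale) in 4 classes of peak. The members, with a median of 4.34, lie close to the other classes called in replicate 2 alone, and the 254 intronic peaks called in both libraries lie to the right, with a median of 35.4.

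The highest-scoring members reached the level of the intronic peaks called in both libraries. *upSET*, which encodes a SET-domain chromatin protein, held the highest, with a −log10 p-value of 1670 at 761 bp from a TSS, and the next but one, with a fold enrichment of 32.7. *mbl*, the gene of the splicing regulator Muscleblind, held the second, whose fold enrichment of 70.8 was the highest of all members and whose summit lay 508 bp from a TSS. The non-coding gene *lncRNA:CR32773* held the fourth, at 26.7. *tim*, a gene of the circadian clock, followed, with a fold enrichment of 41.1 and a replicate 1 peak 613 bp away. Next came *tara*, which encodes a transcriptional coregulator, at 35.8 and 370 bp from a replicate 1 peak, and *Pde11*, a cyclic nucleotide phosphodiesterase gene, at 37.1. The others of the first 15 were at *mam*, the Notch coactivator gene (39.7), *mld*, a zinc-finger gene of ecdysone synthesis (29.1), *kay*, the fly Fos gene (31.9), the arginine kinase gene *Argk1* (27.4), *lncRNA:iab8* with *MSAmiP* in the bithorax complex (25.6), the ubiquitin ligase gene *ctrip* (20.5), *Kr-h1*, a zinc-finger gene of the juvenile hormone response (13.6), and the synaptotagmin gene *Sytbeta* (35.9). Of these 15, 5 lay within 1000 bp of a replicate 1 peak interval, at *tim*, *tara*, *mam*, *kay* and *Argk1*. Among all members 203 did, or 9.58%.

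Distances to replicate 1 peaks varied widely, and the rule itself shut out overlaps. The same distances over all introns were not computed, so members cannot be called near or far. The median distance was 15009.5 bp, 92 members (4.34%) lay within 500 bp of a replicate 1 interval, and 858 (40.5%) lay within 10000 bp. The share of intronic peaks called in both libraries followed the replicate 2 score. It was 0.126% in the lowest 25% of the list, where 1 of 796 was found in both. Between percentiles 75 and 90 it was 32.0%, 94 of 294, and in the top 10 percent 90.5%, 152 of 168. The closest members to the TSS limit were at *neur* (502 bp, fold enrichment 5.35), *CG2246* (503 bp, 18.0) and *lace* (503 bp, 6.64), and the closest peaks left out were at *CG13280* (500 bp, 8.03), *Vti1b* with *Vha100-2* (500 bp, 2.68) and *CG4297* (499 bp, 6.44). Nearest to a replicate 1 interval without touching it were members at *Ace* (63 bp, 2.41), *spir* (97 bp, 3.09) and *Eglp2* with *Eglp4* (117 bp, 2.90). Peaks left out for the smallest overlaps were at *ttv* with *LamC* (21 bp, 5.97), *Lpin* with *kermit* (60 bp, 3.52) and *CG43658* (160 bp, 29.5).

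Within introns, members gathered toward TSSs although the first 500 bp were left out. The median distance to a TSS was 1924.5 bp, against 5762 bp over all intron bases that could hold a member, here called eligible intron, and 2167.5 bp for the intronic peaks called in both libraries. Eligible intron amounted to 53.8 Mb and held 39.4 members per Mb, or 1 per 25.4 kb. Density was 131 per Mb between 500 and 1000 bp from a TSS, 72.1 from there to 2000 bp, and 37.5 between 2000 and 5000 bp. It was 29.6 between 5000 and 10000 bp, 18.7 from 10000 to 20000 bp and 5.43 beyond. Height was alike over distance, with a median fold enrichment between 4.15 and 4.39 in all 6 ranges. Intronic peaks called in both libraries thinned out too, from 15.2 per Mb in the first range to 0.852 in the last.

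First introns held more members than their length. Of the 2120, 1427 lay in the first intron of a transcript, which is 67.3% (65.3 to 69.3%), whereas first introns made up 43.0% of eligible intron. Among the intronic peaks called in both libraries 133 of 254 did, or 52.4% (46.2 to 58.4%). At the same distance from a TSS first introns were also denser than other introns in each of the 6 ranges, with 150 against 89.01 members per Mb between 500 and 1000 bp and 14.8 against 3.67 beyond 20000 bp. The TSS nearest to the summit belonged to a host gene for 1653 members (78.0%). The same share over eligible intron was not computed, so this value cannot be called high or low. Few members lay in annotated transposable elements, 4 of 2120 or 0.189%, against 7.02% of eligible intron. How the authors' alignment placed reads in repeats was not tested.

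**Figure D2:**
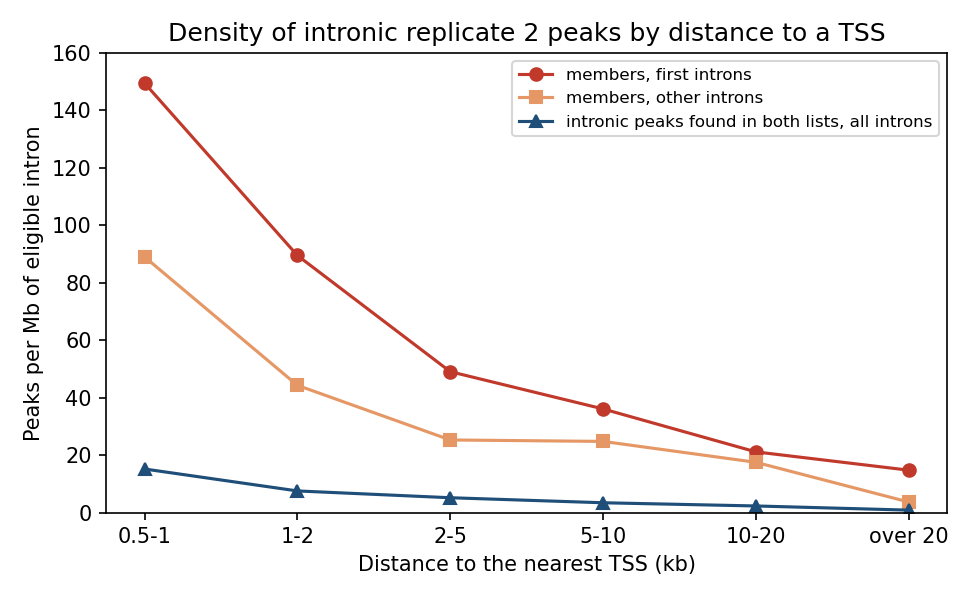
Intronic replicate 2 peaks per Mb of eligible intron (y axis) in 6 ranges of distance to the nearest TSS (x axis, kb). Members in first introns fall from 150 to 14.8 per Mb and those in other introns from 89.01 to 3.67, and intronic peaks called in both libraries fall from 15.2 to 0.852.

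The arms differed little apart from the small ones. Members per Mb of eligible intron came to 39.6 on 2L, 41.2 on 2R, 41.3 on 3L, 37.2 on 3R and 43.3 on X. Chromosome 4 had 14 members, or 24.4 per Mb. The Y chromosome had 0 members in 0.956 Mb, and 3 members, the limit that a count of 0 allows, would give 3.14 per Mb. The replicate 2 list had no peak of any class on Y, so this count says nothing particular to introns. Why the list lacks Y peaks was not tested.

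The members lay in 1122 genes, which is 11.7% of the 9549 genes with any eligible intron. Hosts were 1083 of 9111 protein-coding genes, 39 of 368 non-coding genes and 0 of 70 pseudogenes with eligible intron. These gene types were not matched for intron length. A single member was the most common case, in 680 hosts. The 442 hosts with at least 2 members held 70.2% of all members, 89 hosts had at least 5, and 20 had at least 10. Those 20 held 256 members, or 12.1%. Some genes overlap, and 161 members (7.59%) counted for more than 1 host. Another member lay within 1000 bp for 552 members (26.04%) and within 5000 bp for 1126 (53.1%), and the median distance was 3908.5 bp. The spacing that eligible intron alone would give was not computed, so members cannot be called close together or far apart.

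The number of members in a gene went with its intron length. Hosts had a median of 11.1 kb of eligible intron and genes without a member 0.347 kb. The share of genes that hosted a member was 0.222% below 500 bp of eligible intron, 11.3% between 1000 and 2000 bp, 30.9% between 5000 and 10000 bp, 48.1% between 20000 and 50000 bp and 58.5% above 50000 bp. Density ran differently: it was highest, at 88.5 members per Mb, in genes with 1000 to 2000 bp and lowest among the genes above 500 bp, at 20.7 per Mb, in those above 50000 bp. Over the 9549 genes Spearman's rho between eligible intron and members was 0.446, a description over genes that share 1 library. Some of the longest genes had no member. *Pzl* with 702 kb of eligible intron, *lovit* with 429 kb and *DIP-lambda* with 376 kb were such genes, as were the Y-linked *Ppr-Y*, with 245 kb, and *kl-3*, with 212 kb. These Y-linked genes lie on an arm where the replicate 2 list had no peak of any class. *Pzl*, *lovit* and *DIP-lambda* also had no replicate 2 summit at an own promoter and 0 intronic peaks called in both libraries. The absence of members is thus not particular to their introns, and whether reads could be placed in these genes was not tested.

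**Figure D3:**
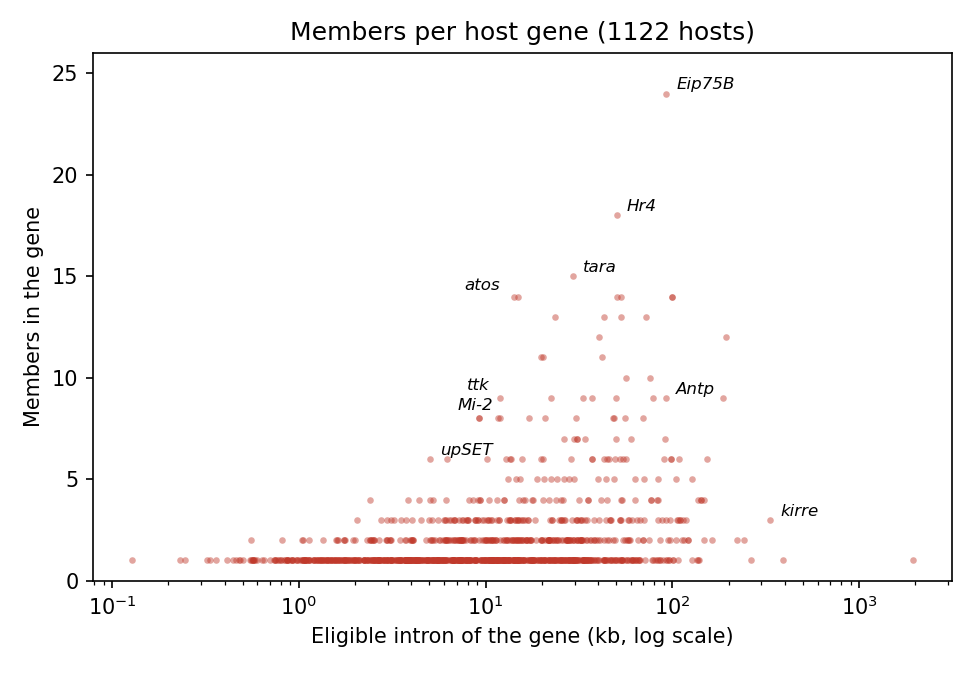
Members in each of the 1122 host genes (y axis) against the gene's eligible intron (x axis, kb, log scale), 1 point per gene, with 9 genes named. *Eip75B* stands highest with 24 members, and *atos* reaches 14 in 14.2 kb while *kirre* has 3 in 333 kb.

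The gene with most members was *Eip75B*, which encodes the ecdysone-induced nuclear receptor E75. Its 24 members lay in 92.1 kb of eligible intron and spread over 105 kb. Their fold enrichments ran from 2.78 to 28.0, with a median of 5.55, and 18 held GAGAG within 100 bp of the summit. The gene also held 6 intronic peaks called in both libraries. *Hr4*, another nuclear receptor gene of the ecdysone response, had 18 members in 50.3 kb, with a highest fold enrichment of 17.6 and 4 intronic peaks called in both. *Eip74EF*, an ecdysone-induced ETS factor gene, had 14 in 50.8 kb, and *ftz-f1*, the gene of a nuclear receptor that gives tissues competence to respond to later ecdysone pulses, had 12 in 40.6 kb with a median fold enrichment of 7.46.

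Other hosts with at least 10 members follow, grouped by roles read after the counts were seen. *tara* had 15 members, all in a first intron, with fold enrichments from 2.05 to 35.8. *CHES-1-like*, a forkhead factor gene, had 14 in 14.9 kb, all in a first intron, and *atos*, which encodes a nuclear regulator needed for macrophage invasion, had 14 in 14.2 kb. *Mnt*, whose product pairs with Max and opposes Myc, had 13 in 23.4 kb. *shn*, a zinc-finger gene of Dpp signalling, had 13 with fold enrichments of at most 10.4. *crp*, a basic helix-loop-helix gene, and *Pdp1*, a bZIP gene of the clock, had 11 each. *skd*, the Mediator subunit gene Med13, had 11 members, none of them in a first intron and all 11 with GAGAG. *mam* had 10, with fold enrichments from 2.12 to 39.7.

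*Tlk*, a Tousled-like kinase gene, had 14 members with fold enrichments from 2.20 to 24.4. *rdx*, whose BTB product hands the Hedgehog effector Ci to a ubiquitin ligase, had 13. *CG32264* also had 13, *lncRNA:CR44357* had 12 in 193 kb, and *lncRNA:iab8* had 10. *Glut4EF*, which encodes a DNA-binding factor, and *CG46467* overlap, and their 14 members were the same 14 peaks. The closest pair of members within a gene ranged from 213 bp, at *shn*, to 1345 bp, at *lncRNA:iab8*, among the 20 genes.

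**Figure D4:**
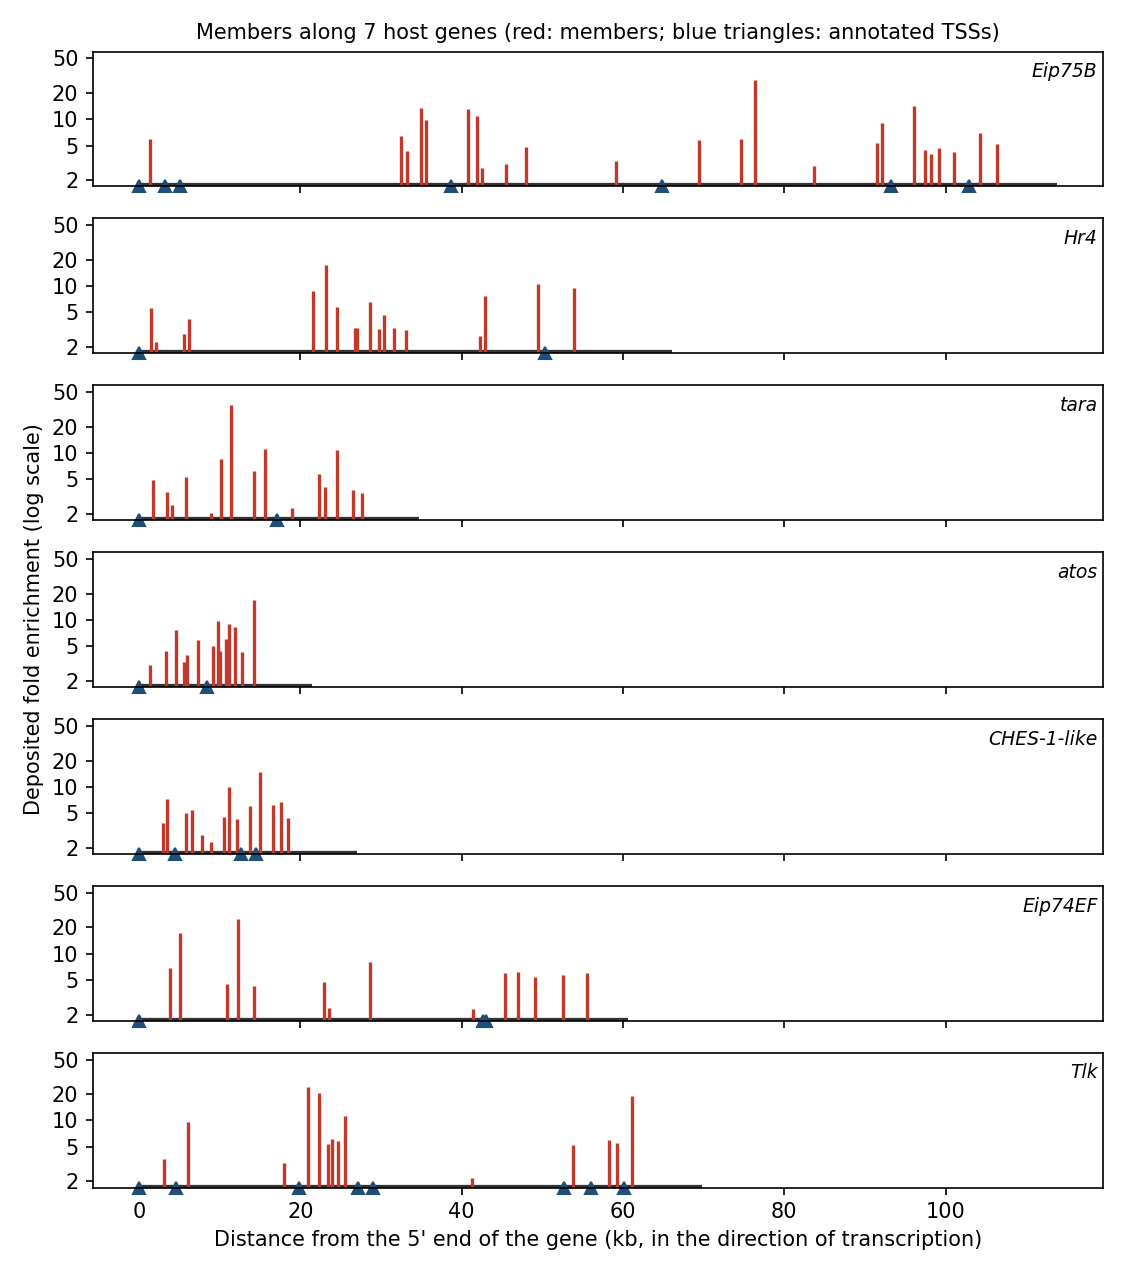
Members (red lines, height as deposited fold enrichment on a log scale) along 7 host genes drawn to 1 scale from the 5′ end (x axis, kb), with annotated TSSs as blue triangles. The 24 members of *Eip75B* spread over 105 kb in groups, whereas the 14 of *atos* and the 14 of *CHES-1-like* fill 12.96 and 15.5 kb.

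Counted per length, other genes stood high. Dense hosts with at least 3 members included *Ifrd1*, with 3 in 2.06 kb of eligible intron (1458 per Mb), *upSET*, with 6 in 5.04 kb (1191), the mitochondrial ADP/ATP carrier gene *sesB*, with 3 in 2.77 kb (1084), and *spi*, which encodes an EGF receptor ligand, with 4 in 3.85 kb (1038).

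Hosts often had a replicate 2 peak at their own promoter as well. Over the 9111 coding genes with eligible intron, 40.0% had a replicate 2 summit within 200 bp of an own TSS. Among the coding hosts it was 833 of 1083, or 76.9% (74.3 to 79.3%), and among genes without a member 2812 of 8028, or 35.03% (34.0 to 36.1%). Part of this gap went with intron length. In genes with 20000 bp of eligible intron or more the shares were 78.9% (74.4 to 82.8%) and 59.3% (54.1 to 64.3%), and in those below 2000 bp they were 67.2% (58.7 to 74.6%) and 29.5% (28.4 to 30.7%). A promoter peak called in both libraries was present at 19.0% of hosts and 5.61% of the other genes. Both measures come from the same library as the members.

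Gene groups were described from 14 lists, against all 9549 genes, of which 11.7% hosted a member with a median of 0 members per gene. Because lists differ in intron length, the share and the density over all genes, weighted to the same classes of intron length, are given beside each after the word against. Among genes of the ecdysone response and nuclear receptors, 17 of 22 with eligible intron were hosts, 77.3% (56.6 to 89.9%), against 42.1% at the same lengths, with a median of 1.5 members and 146 members per Mb against 29.9. *EcR*, the ecdysone receptor gene, had 7 members with a highest fold enrichment of 11.8, *Hr3* had 5, and *br*, the Broad gene, had 3. Because *Eip75B*, *Hr4* and *Eip74EF* lead the list, these 3 genes account for 56 of its 99 members. The list and its leading genes come from the same peaks, so the count is no independent evidence.

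In the list of BTB genes 16 of 20 were hosts, 80% (58.4 to 91.9%), against 42.2% at the same lengths, with a median of 2 members and 91.04 members per Mb against 29.4. The list is one of transcription factors apart from *rdx*, which led it, and without *rdx* 15 of 19 were hosts, 78.9% against 41.3%. *psq* had 9 members with a highest fold enrichment of 30.0 and *ttk* had 9 in 12.0 kb. *psq* encodes a protein known to bind GA repeats, and *ttk* the repressor Tramtrack. *lola* itself had 3 members, with fold enrichments of 3.00, 15.2 and 11.6, and *Trl* had 2, at 8.51 and 11.0.

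Among the Hox genes, which set segment identity, 6 of 8 were hosts, 75% (40.9 to 92.9%), against 46.6%, at 92.6 members per Mb against 33.6. *Antp* had 9 members, *Abd-B* 6 with a median fold enrichment of 8.81, and *Ubx* 5, all in a first intron. *Dfd* and *Scr* had none. In the list of chromatin remodellers and Polycomb and trithorax genes 10 of 28 were hosts, 35.7% (20.7 to 54.2%), against 17.3%, at 235 members per Mb against 59.3. The median of this list was 0 members per gene, and its leading genes held most of its 39 members. *psq*, which this list shares, had 9, *Mi-2*, a nucleosome remodeller gene, 8 in 11.9 kb, and *kis*, a chromodomain helicase gene, 6 with a highest fold enrichment of 21.7. Transcription factors of patterning and the nervous system were hosts in 22 of 62 cases, 35.5% (24.7 to 47.9%), against 30.1%, at 55.1 per Mb against 44.03. *ush*, a partner of GATA factors, led with 7, followed by the POU gene *pdm3* with 5 and by *Lim1*, *Mef2* and *aop*, the ETS repressor gene Yan, with 4 each.

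RNA-binding proteins were hosts in 21 of 25 genes, 84% (65.3 to 93.6%), against 44.2% at the same lengths, and density was 29.6 members per Mb against 24.6. This share moved with the distance limit: with summits over 1000 bp from every TSS it was 52%, against 38.0% at the same lengths and 11.5% over all genes. *Imp*, an mRNA-binding regulator, had 6 members with a median fold enrichment of 9.04, *pum*, the translational repressor Pumilio, 6, and the splicing regulators *heph* and *ps* 4 each. Clock genes were hosts in 6 of 10 cases, 60% (31.3 to 83.2%), against 31.1%, at 187 per Mb against 48.3. Their median was 1 member per gene, and the leading genes held most of the 24 members. *Pdp1* led with 11, followed by *sgg*, a kinase gene, with 5 and *vri*, a bZIP repressor gene, with 4, and *per* had none.

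Signalling genes were hosts in 21 of 50 cases, 42% (29.4 to 55.8%), against 32.6%, at 74.99 per Mb against 43.4. *shn* led, *InR*, the insulin receptor gene, had 9 with a median fold enrichment of 7.44, and *Egfr* had 4. Genes of septate junctions and epithelial polarity were hosts in 11 of 21 cases, 52.4% (32.4 to 71.7%), against 30.1%, at 67.4 per Mb against 42.8, led by *sdt*, of the Crumbs complex, with 8, *nrv2*, a sodium pump subunit, with 3 and *cora*, a septate junction protein, with 2. Muscle protein genes were hosts in 9 of 30 cases, 30% (16.7 to 47.9%), against 26.6%, at 51.04 per Mb against 52.9, with 4 members at the tropomyosin gene *Tm1*, 3 at *Msp300* and 2 at the paxillin gene *Pax*.

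The host shares of the 3 neuronal lists had overlapping intervals. Of the axon guidance and neuronal adhesion genes 17 of 60 were hosts, 28.3% (18.5 to 40.8%), against 46.2% over all genes at the same lengths, and density was 10.8 members per Mb against 28.4 at those lengths. *beat-Ib* had 6 members, and *CadN*, *Ptp10D* and *kirre* had 3 each, in 114, 46.5 and 333 kb. Ion channel and receptor genes were hosts in 20 of 46 cases, 43.5% (30.2 to 57.8%), against 35.5%, at 30.3 members per Mb against 33.8, with 3 members each at the potassium channel genes *SK* and *slo* and the calcium channel gene *cac*. Synaptic vesicle release genes were hosts in 10 of 27 cases, 37.0% (21.5 to 55.8%), against 35.04%, at 22.3 per Mb against 33.9, with 3 members at *brp*, an active zone gene, and 2 each at *Rbp*, *Snap25* and *Sytbeta*. Cytosolic ribosomal protein genes have little eligible intron, and 0 of 10 were hosts, with an upper Wilson limit of 27.8%. Counting 3 hosts as the limit that a count of 0 allows gives 30.0%. At the same lengths 0.971% of all genes were hosts.

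GA repeats were frequent at the summits. GAGAG, on either strand within 100 bp of the summit, occurred in 1217 of the 2120 members, 57.4% (55.3 to 59.5%), against 21.4% of 266873 windows of the same width that tile eligible intron. Windows 500 bp to the left and right of the members held it in 25.9% and 26.98% of cases. The longer repeat GAGAGAG occurred in 24.95% of members and 2.71% of windows. An uninterrupted GA run of at least 10 bp stood in 9.53% of members, 7.87% of the intronic peaks called in both libraries and 0.639% of windows. The longest was 41 bp in members and 73 bp in the windows. Of the 1516 6-letter words found in at least 5% of members, the 5 with the largest ratio to the windows were AGAGAG (38.7% against 7.96%, a ratio of 4.86), AGAGCG (29.4% against 6.21%), CCTCTC (25.05% against 5.45%), GAGAGC (31.8% against 7.07%) and GAGAGA (33.0% against 7.54%), which overlap each other. At the other end was TATTAA, in 5.33% of members and 21.0% of windows.

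Base composition moved with these words. Members had a median GC content of 48.8%, eligible windows 40.3%, and the windows beside the members 39.8% and 39.3%. Within windows of like GC the difference in GAGAG remained except in the lowest class: below 35% GC it occurred in 12.2% of 41 members and 13.3% of windows, between 45 and 50% in 57.2% and 26.8%, and at 50% or more in 65.5% and 29.1%. AAAGCT ran the other way. It occurred in 56.1% of the members below 35% GC against 14.9% of windows, and in 13.8% against 8.94% at 50% GC or more. CACACA, another repeat word, occurred in 40.5% of members, 17.2% of windows and 26.8% of the intronic peaks called in both libraries.

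The words differed between members and the intronic peaks called in both libraries. AAAGCT occurred in 23.4% of members (21.6 to 25.2%), 13.05% of eligible windows and 76.4% of the peaks called in both (70.8 to 81.2%). AAGCTC occurred in 16.04%, 7.41% and 49.6%, and AAGCTT in 10.8%, 5.69% and 49.2%. GAGAG occurred in 57.4% of members and 47.6% (41.6 to 53.8%) of the peaks called in both. These words came from an earlier look at the same peaks, so their frequency in the peaks called in both is no independent evidence. Of the members, 43.4% held GAGAG without an AAGCT word, 15.2% an AAGCT word alone, 14.0% both and 27.4% neither. Among the peaks called in both these shares were 11.0%, 42.5%, 36.6% and 9.84%.

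**Figure D5:**
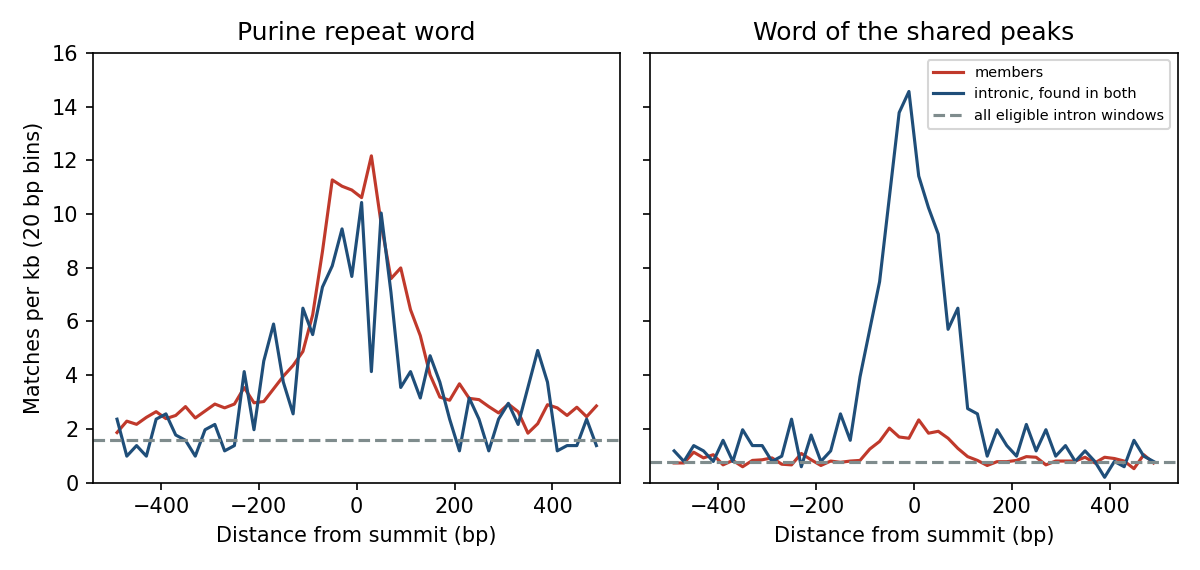
Matches per kb in 20 bp bins (y axis) by distance from the summit (x axis, bp) for the repeat word GAGAG (left) and for AAAGCT (right), with the level over all eligible intron windows dashed. At members GAGAG reaches 12.2 matches per kb against 1.602 over all windows, and AAAGCT reaches 2.33 at members and 14.6 at the intronic peaks called in both libraries.

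The difference in AAGCT words was also present within classes of score. Score was not matched inside a class, and the share called in both rose with score, so scores may still differ between the groups. Between percentiles 75 and 90 of the replicate 2 score, AAAGCT occurred in 66 of 200 members, 33% (26.9 to 39.8%), and in 60 of 94 intronic peaks called in both, 63.8% (53.8 to 72.8%). GAGAG occurred in 71.5% (64.9 to 77.3%) and 58.5% (48.4 to 67.9%). Above percentile 90, 5 of 16 members and 128 of 152 peaks called in both held AAAGCT. Among members, GAGAG was more frequent at higher score, from 46.6% in the lowest tercile to 56.7% and 68.9% in the others, whereas AAAGCT was at 21.5%, 19.8% and 28.9%. Members with both kinds of word had a median fold enrichment of 5.39, those with GAGAG alone 4.51, those with an AAGCT word alone 4.28, and those with neither 3.798.

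The core promoter words TATCGATA and GGTCACAC were rare at members, near their level in eligible windows. The rule left out summits within 500 bp of a TSS, so a contrast with promoter peaks describes that choice. TATCGATA, the DRE, occurred in 0.660% of members, 0.442% of eligible windows and 11.2% of the promoter peaks of replicate 2 alone. GGTCACAC, known as Motif 1, occurred in 0.236%, 0.295% and 9.69%. The E-box CAGCTG occurred in 13.1% of members, 7.24% of windows and 17.1% of those promoter peaks. CAGGTA, the Zelda word, occurred in 3.16% of members and 4.19% of windows, and TTTATG in 15.5% and 23.7%. None of these words was compared within windows of like GC, and members had a higher GC content than the windows. GAGAG was less frequent in the other classes of replicate 2 alone, at 37.6% (36.1 to 39.1%) of promoter peaks and 42.2% (39.0 to 45.5%) of intergenic peaks, than in the 57.4% of members.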

How the data were processed

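Chromatin of formaldehyde-fixed embryos was immunoprecipitated and sequenced, per the labels' protocols. The submitters' processing notes name CASAVA 1.8.2, Bowtie 1.0.0 and the build dm6. The peak caller, its control and its filters are not given in the sources used here. The authors deposited 1 peak list per replicate, with fold enrichment (a ratio over the caller's background), −log10 p-value, −log10 q-value and summit offset for each peak. The deposited score was 10 times the −log10 p-value without decimals in all 9674 replicate 2 peaks. All these values depend on the depth and background of their own library, so ranks and score classes were formed within the replicate 2 list, and only the lowest −log10 p-values of both lists are set side by side.

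Summits were placed on Ensembl release 115 genes (BDGP 6.54), transposable elements left out, and sequence came from the RefSeq assembly. The 9 replicate 2 peaks off the 7 arms were left out. An overlap of 1 bp counted. Words were sought on both strands from 100 bp before to 100 bp after the summit. Python 3.11.15 ran NumPy 2.4.6 and SciPy 1.17.1 for the tables and matplotlib 3.10.9 for the plots, and the rule was tested on simulated intervals.

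The members, words and 14 gene lists were chosen with earlier results of these data known. Named were the 20 hosts with most members, the hosts of the 15 highest-scoring members, the 5 densest hosts with at least 3 members (1 of them is not reported here), the 3 leading genes of each list (ties included), *lola*, *Trl*, the peaks nearest each limit and the 5 6-letter words with the largest ratio. *br*, *Hr3*, *Dfd*, *Scr*, *per* and the longest genes without a member were chosen after their values were seen. So were the GC classes, the comparison within classes of score, the word combinations and the density weighted by intron length. The BTB list without *rdx* and the GA-repeat sequences were also chosen after their values were seen. Alternatives were other TSS distances, a gap of 500 bp to replicate 1, a q-value limit, the higher-scoring 50% of the list, coding genes only, whole intervals outside exons, a window of 50 bp on each side and replicate 2 without replicate 1. The 2 libraries have the same group, and the labels do not say whether they came from separate embryo collections.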

Additional observations from a re-analysis of the deposited data

How the results depend on the processing

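The number of members was 2028 with no replicate 1 peak within 500 bp, 2106 at a −log10 q-value of at least 5, 2091 with coding genes only and 2021 with the whole interval in no exon, and these 4 settings left the number of hosts, the first-intron share, the median TSS distance, the median fold enrichment, the density and the GAGAG share within their intervals or 1.5 times the count. With a limit of 200 bp from a TSS there were 2530 members, 69.7% in first introns, at a median TSS distance of 1479.5 bp. With 1000 bp there were 1542, 62.9% in first introns, at a median of 3196 bp, with GAGAG in 54.9%. In the higher-scoring 50% of the list there were 711 members in 513 hosts, 26.3% of which had at least 2, at 13.2 per Mb. Of these, 64.6% lay in first introns, the median TSS distance was 1784 bp, the median fold enrichment 8.44 and the GAGAG share 68.5%. A window of 50 bp on each side gave GAGAG in 39.5% of members and 11.4% of eligible windows. Without replicate 1 the rule gave 2374 peaks in 1189 hosts, with a median fold enrichment of 4.67, 65.7% in first introns and GAGAG in 56.4%. Leaving out replicate 2 leaves no members. No paired analysis was possible because all members come from 1 library and no result comes from a test.

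The cause of these shifts was not tested. Depth is unknown, so an absent replicate 1 call does not show an unbound site. Of 25 further list and word shares, 15 left their interval in the higher-scoring 50%, 3 without replicate 1 and 1, that of RNA-binding genes, at 1000 bp from a TSS. The narrower window moved all 10 other word shares.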
